A study of Mus musculus with 12 samples.

Results

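Genes that respond to glucocorticoid hormones in muscle were followed in quadriceps of C57Bl/6J mice after 6 days of drug treatment. They were Fkbp5, Tsc22d3, Klf9, Klf15, Zbtb16, Sgk1, Glul, Nr3c1, Errfi1 and Pik3r1. They were chosen by symbol, with earlier results of these data known, and all 10 were among the 12771 genes tested. The array annotation gives exactly these symbols to 33 of 45037 probe sets, of which 30 passed a filter on dim signals. AICAR mice received 250 mg/kg/day of AICAR, which switches on AMPK, the kinase that senses low cellular energy. GW1516 mice received 5 mg/kg/day of GW1516, a ligand of PPARδ, a nuclear receptor behind much of the muscle's fatty acid burning. Combination mice received both drugs at those doses, and vehicle mice received neither. Each group had 3 Affymetrix arrays, 12 in all, and each array carried RNA pooled from 3 mice. The labels name no genotype other than the strain and give no age, sex, feeding state or hour of dissection, nor do they say if a mouse entered more than 1 pool. The p-values below therefore reflect only pool-to-pool spread, which may be technical.

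Glucocorticoids, mainly corticosterone in mice, are adrenal steroids released under stress, in fasting and with a daily rhythm. They bind the receptor encoded by Nr3c1, which leaves its chaperone complex, enters the nucleus and binds a palindromic DNA element at its target genes. In skeletal muscle the hormone is known to raise genes of protein breakdown and amino acid use and to oppose insulin signalling, and many of its targets also rise in fasting.

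All 14 listed skeletal muscle fibre markers passed the filter, with a median MAS5 signal between 22300 and 29300 over the 12 arrays. Signals are per probe set on a linear scale, with a trimmed mean of 200 on each array, and probes differ in brightness, so levels of different genes are not compared. GW1516 replicate 2 stood apart: it was the highest of the 12 arrays for 14.5% of all genes and the lowest for 19.8%, where the other arrays held 6.17% to 10.8% of the highest and 5.14% to 9.96% of the lowest values. Results that rest on that array are given with and without it. In bulk muscle, fewer cells of a type and less RNA per cell cannot be told apart.

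**Figure D1:**
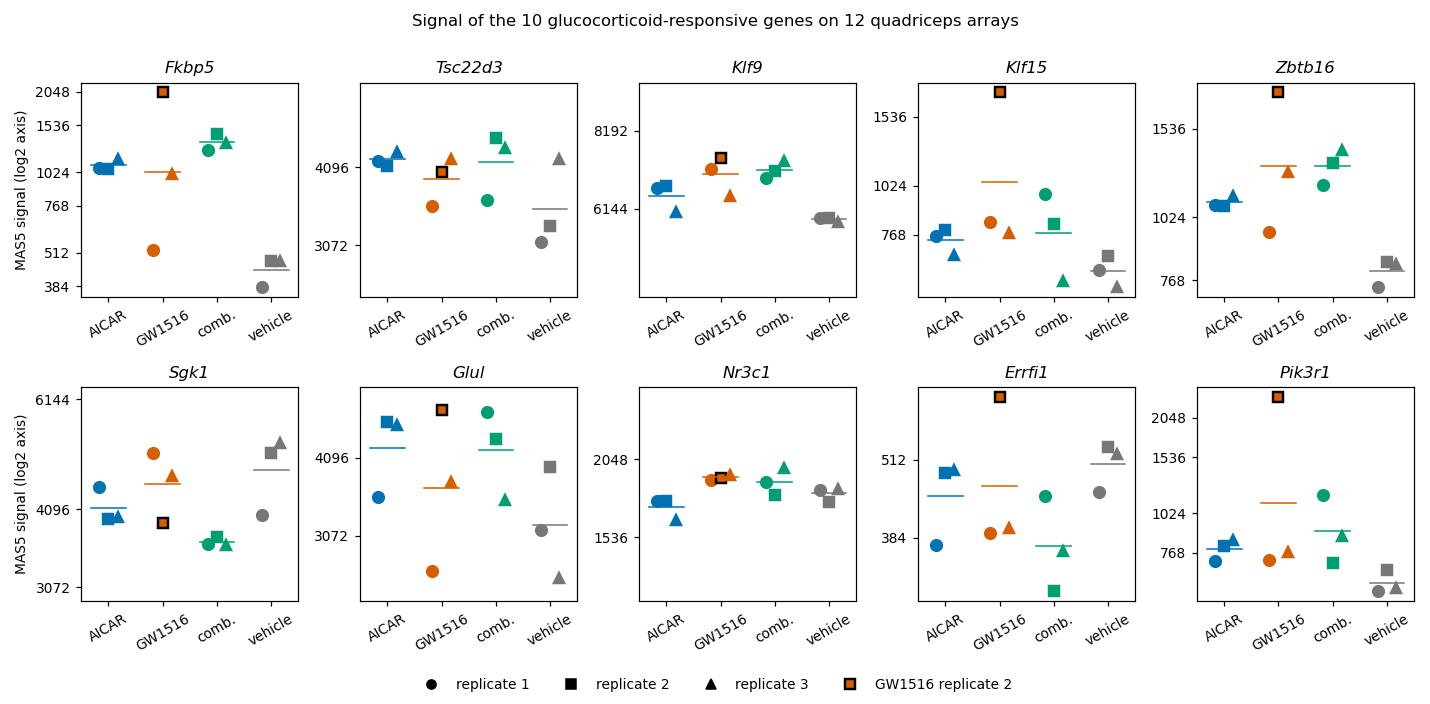
Signal of the brightest probe set of each of the 10 genes (MAS5 signal, log2 axis, with a range of its own in each panel) on the 3 arrays of AICAR, GW1516, combination and vehicle; lines are geometric means and the black outline marks GW1516 replicate 2. That array is the highest of the 12 for 7 of the 10 genes, and Fkbp5 has its lowest value, 381, on vehicle replicate 1.

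Promoters are shown for Fkbp5, Klf15 and Klf9, which were highest on GW1516 replicate 2, and for Sgk1, which was not high there. RefSeq windows of 300 bases in GRCm38.p6, from 250 before to 50 after a transcript start, were at hand for 8 of the 10 genes, 17 windows in all. Capitals mark the receptor's monomer site AGAACA, which on the other strand reads as TGTTCT, the motif GTAAACA of FOXO factors, which act in fasting and atrophy, which on the other strand reads as TGTTTAC, and the palindromic E-box CACGTG, a motif of clock and other basic helix-loop-helix factors, each searched on both strands. The windows are chr17:28486100-28486399 (minus strand, Fkbp5), chr6:90462326-90462625 (plus strand, Klf15), chr19:23140976-23141275 (plus strand, Klf9) and chr10:21993640-21993939 (plus strand, Sgk1, 1 of its 6 windows).
Fkbp5: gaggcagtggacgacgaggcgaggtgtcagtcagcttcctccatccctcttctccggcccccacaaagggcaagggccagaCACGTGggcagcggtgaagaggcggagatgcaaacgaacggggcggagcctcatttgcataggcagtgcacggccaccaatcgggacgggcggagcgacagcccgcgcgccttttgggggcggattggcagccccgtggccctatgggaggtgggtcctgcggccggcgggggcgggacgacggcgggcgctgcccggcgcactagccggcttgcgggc
Klf15: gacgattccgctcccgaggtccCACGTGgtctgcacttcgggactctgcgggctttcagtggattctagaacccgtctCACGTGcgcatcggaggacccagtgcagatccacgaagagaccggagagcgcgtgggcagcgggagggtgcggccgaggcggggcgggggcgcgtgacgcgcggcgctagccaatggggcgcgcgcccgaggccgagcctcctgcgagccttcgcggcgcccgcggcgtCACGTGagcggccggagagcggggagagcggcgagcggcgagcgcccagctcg
Klf9: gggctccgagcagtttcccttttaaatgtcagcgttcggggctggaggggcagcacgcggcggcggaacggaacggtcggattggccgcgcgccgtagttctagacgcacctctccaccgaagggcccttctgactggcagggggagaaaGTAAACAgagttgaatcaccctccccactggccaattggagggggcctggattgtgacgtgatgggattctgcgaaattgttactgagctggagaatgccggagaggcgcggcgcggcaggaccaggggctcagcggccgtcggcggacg
Sgk1: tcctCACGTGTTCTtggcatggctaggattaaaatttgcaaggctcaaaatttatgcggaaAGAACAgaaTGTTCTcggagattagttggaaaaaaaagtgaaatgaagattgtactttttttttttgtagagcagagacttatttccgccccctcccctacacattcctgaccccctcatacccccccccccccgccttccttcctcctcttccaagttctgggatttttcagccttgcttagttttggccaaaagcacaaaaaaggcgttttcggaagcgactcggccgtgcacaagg

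The Sgk1 window held the full palindrome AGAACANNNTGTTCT, as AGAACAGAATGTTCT, starting at position -189 from the transcript start and containing a monomer site on each strand. Of all 32851 promoter windows 3 held that palindrome, or 0.00913%. Another monomer site in the Sgk1 window overlaps its E-box. Monomer sites were in 4 of the 17 windows (3 of Sgk1 and 1 of Tsc22d3), beside 19.0% of all windows. The E-box was in the windows of Fkbp5, Klf15 (3 times) and Sgk1, beside 7.15% of all windows, and GTAAACA in that of Klf9, beside 3.65%. A match is a run of letters and not a measured site, and these windows do not cover introns or distant enhancers.

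The receptor gene itself was nearly flat on its brightest probe set. Nr3c1 had signals of 1759, 1754 and 1638 on AICAR arrays, 1894.5, 1914 and 1936 on GW1516 arrays, 1886.5, 1796 and 1982 on combination arrays, and 1831, 1753 and 1837 on vehicle arrays. GW1516 replicate 2 was in the middle of its group. All 3 GW1516 arrays lay above the vehicle arrays, but only by a log2 difference of 0.08 ± 0.070 (SE, 3 arrays in each group; limma, adjusted p = 0.727). Among its other probe sets past the filter, the largest difference from vehicle was 0.41 ± 0.19, for AICAR on the dimmest (limma, fit of all probe sets, adjusted p = 0.687). Of 13 measured genes of the receptor's machinery, such as chaperones, coactivators and the steroid-activating enzyme gene Hsd11b1, 2 were highest and 3 lowest on GW1516 replicate 2. That was 15.4% highest, near the 14.5% of all genes, and for the lowest values the share of all genes was 19.8%. Hspa8, a chaperone of the heat shock family, had 7457 there, against 8059 to 13020.0 on the other arrays.

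Fkbp5, whose protein sits in the receptor's chaperone complex, lowers its affinity for hormone and is itself induced by it, differed most from vehicle. Its signals were 1065, 1054 and 1146 on AICAR arrays, 525, 2036 and 1005 on GW1516 arrays, 1241, 1421 and 1318 on combination arrays, and 381, 478 and 475 on vehicle arrays. Every drug-treated array was above every vehicle array, and the GW1516 arrays spread widest. The differences from vehicle were 1.30 ± 0.32 for AICAR (2.46-fold), 1.21 ± 0.32 for GW1516 (2.32-fold) and 1.58 ± 0.32 for the combination (3.00-fold), each as log2 ± SE with 3 arrays a group. None passed an adjusted p of 0.05 over all genes (limma, adjusted p = 0.338, 0.269 and 0.0637). The fit shares 1 estimate of spread over the 4 groups, and without GW1516 replicate 2 Fkbp5 passed for AICAR (limma, adjusted p = 0.015) and the combination (adjusted p = 0.000654) with unchanged differences, while GW1516 stood at 0.72 ± 0.20 (adjusted p = 0.456). Without GW1516 replicate 1 all 3 passed (limma, adjusted p = 0.038 for AICAR, 0.00916 for GW1516 at 1.69 and 0.00262 for the combination).

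The second bright probe set of Fkbp5 gave the same picture. It read 604, 741 and 686 on AICAR arrays, 424, 1560 and 702 on GW1516 arrays, 730, 983 and 754 on combination arrays, and 361, 396 and 364 on vehicle arrays. Again no drug-treated array was in the vehicle range. The remaining probe set of Fkbp5 was dim, with signals from 2.5 to 36.9, and did not pass the filter. Adipocyte markers also varied between arrays, and the median of 13 measured markers (of 16, the others being Cfd, Plin1 and Acsl1) against the vehicle mean was -0.06, 0.83 and 1.58 on AICAR arrays, 0.58, 0.19 and 1.11 on GW1516 arrays, 1.12, 0.46 and -0.10 on combination arrays, and 0.47, -0.45 and -0.15 on vehicle arrays. Over the groups the summed signal of the 13 markers ran from 25550 to 43318 for AICAR, 20321 to 37187 for GW1516, 23899 to 39528 for the combination and 22436 to 31648 for vehicle. Their part in the Fkbp5 values was not tested.

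Zbtb16, a zinc finger repressor also called PLZF that is strongly induced by glucocorticoids in many cell types, followed Fkbp5. It had 1082, 1078 and 1132 on AICAR arrays, 957, 1816 and 1260.5 on GW1516 arrays, 1186, 1316 and 1395 on combination arrays, and 744, 835 and 825 on vehicle arrays. On this probe set no drug-treated array reached down to the vehicle range. The differences were 0.45 ± 0.17 for AICAR, 0.70 ± 0.17 for GW1516 and 0.70 ± 0.17 for the combination (limma, adjusted p = 0.632, 0.246 and 0.129). Without GW1516 replicate 2 the combination passed (limma, adjusted p = 0.00562), and GW1516 stood at 0.46 (adjusted p = 0.34). Without GW1516 replicate 1 both GW1516 at 0.92 (limma, adjusted p = 0.0132) and the combination (adjusted p = 0.0335) passed. All 3 Zbtb16 probe sets were highest on GW1516 replicate 2, but on the 2 dimmer ones GW1516 replicate 1 was not above vehicle: it read 209.7 on one, against 214 to 243 on vehicle arrays, and 241 on the other, against 207 to 243.

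The Krüppel-like factors Klf9 and Klf15 are transcription factors directly induced by the hormone, and Klf15 drives amino acid breakdown in muscle. Klf9 had 6628, 6670.2 and 6072 on AICAR arrays, 7105, 7418 and 6444 on GW1516 arrays, 6891, 7072 and 7328 on combination arrays, and 5938, 5938 and 5856 on vehicle arrays. On this, its brightest probe set, no drug-treated array reached down to the narrow vehicle range. The differences were 0.13 ± 0.071 for AICAR, 0.24 ± 0.071 for GW1516 and 0.26 ± 0.071 for the combination (limma, adjusted p = 0.757, 0.361 and 0.195). Every other Klf9 probe set past the filter had a drug-treated array within or below the vehicle range. In the fit of all probe sets, their differences ran from -0.05 to 0.32 for AICAR, 0.17 to 0.27 for GW1516 and 0.0064 to 0.565 for the combination. Klf15 had 765, 790.1 and 682 on AICAR arrays, 829, 1773 and 778 on GW1516 arrays, 978, 817 and 587 on combination arrays, and 624, 679 and 566 on vehicle arrays. Only GW1516 replicate 2 stood far out, and the GW1516 difference of 0.75 ± 0.25 (limma, adjusted p = 0.416) was 0.37 ± 0.16 without it (adjusted p = 0.701). For AICAR Klf15 differed by 0.26 ± 0.25 and for the combination by 0.32 ± 0.25 (limma, adjusted p = 0.867 and 0.681), and the combination arrays overlapped vehicle.

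Tsc22d3, which encodes the leucine zipper protein GILZ and is a standard glucocorticoid target, did not share that pattern. It had 4192, 4115 and 4335 on AICAR arrays, 3554, 4025.5 and 4213 on GW1516 arrays, 3622, 4560 and 4388 on combination arrays, and 3113, 3296 and 4219 on vehicle arrays. All 3 comparisons overlapped vehicle because of vehicle replicate 3, and GW1516 replicate 2 was 8th of the 12 arrays. The differences were 0.26 ± 0.12 for AICAR, 0.16 ± 0.12 for GW1516 and 0.25 ± 0.12 for the combination (limma, adjusted p = 0.708, 0.679 and 0.460). Its next brightest probe set differed by 0.37 ± 0.11 for AICAR and 0.38 ± 0.11 for the combination in the fit of all probe sets (limma, adjusted p = 0.417 and 0.195).

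Members that act on kinase and insulin signalling split. Pik3r1, the regulatory subunit of PI 3-kinase, which glucocorticoids raise in muscle, had 727, 807 and 840.3 on AICAR arrays, 729, 2390.1 and 774 on GW1516 arrays, 1168, 716 and 866 on combination arrays, and 581, 678 and 595 on vehicle arrays. On this, its brightest probe set, GW1516 replicate 2 was 3.18-fold above the geometric mean of the other 2 arrays of its group, which were only just above vehicle. The GW1516 difference of 0.84 ± 0.33 (limma, adjusted p = 0.478) was 0.28 ± 0.16 without that array (adjusted p = 0.775), and AICAR differed by 0.36 ± 0.33 and the combination by 0.54 ± 0.33 (adjusted p = 0.859 and 0.576). All 4 Pik3r1 probe sets were highest on GW1516 replicate 2: the other 3 read 739, 344 and 174 there, where the highest value of the same probe sets on any other array was 314, 149 and 148.

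Sgk1, a kinase induced by mineralocorticoids and glucocorticoids, was not high on GW1516 replicate 2, and 1 of its promoter windows holds the receptor's palindrome. It had 4445, 3946 and 3975 on AICAR arrays, 5043, 3896 and 4630.4 on GW1516 arrays, 3608, 3703 and 3594 on combination arrays, and 4004, 5041 and 5220.3 on vehicle arrays. The combination arrays all lay below the vehicle arrays, as for 9.69% of all genes, and all lay below the GW1516 arrays, as for 6.08%. GW1516 replicate 2 was the lowest of its group. The combination differed from vehicle by -0.38 ± 0.11 (1.30-fold lower, limma, adjusted p = 0.209) and from GW1516 by -0.31 ± 0.11 (adjusted p = 0.372). AICAR differed from vehicle by -0.20 ± 0.11 (adjusted p = 0.754) and GW1516 by -0.07 ± 0.11 (adjusted p = 0.870), the last being 0.03 without GW1516 replicate 2.

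Errfi1, also called Mig6, a feedback inhibitor of the EGF receptor family, had 374, 487 and 494 on AICAR arrays, 391, 646 and 398 on GW1516 arrays, 448, 315 and 365 on combination arrays, and 455, 537 and 523 on vehicle arrays. On this, its brightest probe set, the other GW1516 arrays and all combination arrays were below vehicle, while GW1516 replicate 2 was the highest of the 12. The combination differed by -0.44 ± 0.19 (limma, adjusted p = 0.427). For GW1516 the difference was -0.12 ± 0.19 (adjusted p = 0.877), or -0.35 ± 0.16 without that array (adjusted p = 0.701). The second probe set of Errfi1 was highest on vehicle replicate 2, at 388, with 384 on GW1516 replicate 2. There the other GW1516 arrays were also below vehicle, at 220 and 221. The combination arrays, at 247, 334 and 299, lay within the vehicle range of 237 to 388. On it the combination differed by -0.09 ± 0.22 in the fit of all probe sets (limma, adjusted p = 0.917).

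Glul encodes glutamine synthetase, which makes the glutamine that muscle exports and is a hormone target in this tissue. It had 3541, 4670.5 and 4614 on AICAR arrays, 2699.7, 4889 and 3743.5 on GW1516 arrays, 4848, 4383.5 and 3507 on combination arrays, and 3137, 3964 and 2626 on vehicle arrays. On this, its brightest probe set, every group overlapped vehicle, and GW1516 replicate 2 was the highest array. The differences were 0.41 ± 0.20 for AICAR, 0.20 ± 0.20 for GW1516 and 0.40 ± 0.20 for the combination (limma, adjusted p = 0.730, 0.783 and 0.496), and GW1516 stood at -0.01 without replicate 2. On the other Glul probe set only the AICAR arrays, at 2201, 2483 and 2420, all lay above vehicle, at 1816, 2083 and 1544. AICAR differed there by 0.39 ± 0.18 in the fit of all probe sets (limma, adjusted p = 0.691). Of 14 measured genes of amino acid and glutamine metabolism, 3 were highest and 3 lowest on GW1516 replicate 2, beside 14.5% and 19.8% of all genes. Slc38a2, a glutamine transporter, had 2249 on that array, against 1008 to 1667 on the others. Gpt, alanine aminotransferase, had 352, against 355 to 599, and Prodh, the first enzyme of proline breakdown, had 371, against 171 to 340.5.

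**Figure D2:**
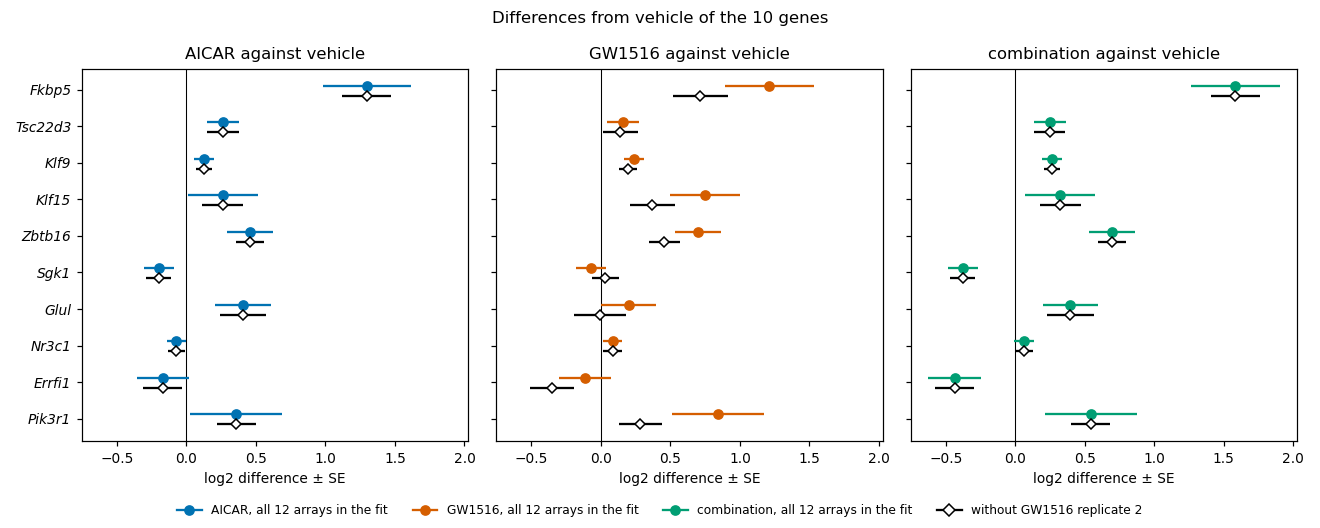
Log2 difference ± SE of each of the 10 genes for AICAR, GW1516 and the combination against vehicle (3 arrays a group, limma); filled circles are fits of all 12 arrays and open diamonds fits without GW1516 replicate 2. Fkbp5 lies between 1.21 and 1.58 in the fits of all arrays, and leaving the array out lowers the GW1516 differences of Fkbp5, Klf15, Zbtb16 and Pik3r1 and shortens the bars of the other comparisons.

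Counted together, 0 of the 10 genes were called for any drug against vehicle at limma's adjusted p under 0.05. The background was 0.0% of 12771 genes called higher and 0.00783% lower for AICAR, 0.0783% higher and 0.0157% lower for GW1516, and 0.157% higher and 0.102% lower for the combination. At an unadjusted p under 0.05, 3 of the 10 were higher and 0 lower for AICAR (background 3.88% and 3.05%), 5 higher and 0 lower for GW1516 (4.48% and 5.16%), and 3 higher and 2 lower for the combination (5.07% and 5.79%). Fkbp5 and Zbtb16 were among the higher ones each time, with Tsc22d3 for AICAR, with Klf9, Klf15 and Pik3r1 for GW1516, and with Klf9 for the combination, where Sgk1 and Errfi1 were the lower ones. Without GW1516 replicate 2 these counts were 5 higher and 1 lower for AICAR (background 4.97% and 4.38%), 4 and 1 for GW1516 (3.59% and 3.29%), and 7 and 2 for the combination (6.55% and 7.49%). These counts, and those by position, were read on the brightest probe set of each gene, and other probe sets of a gene can differ. By position alone, all 3 AICAR arrays were above the vehicle arrays for 5 of the 10 genes (background 9.3%), all 3 GW1516 arrays for 6 (6.3%) and all 3 combination arrays for 4 (8.9%), with 2 below for the combination (9.69%) and 0 below for AICAR (9.03%) and GW1516 (7.91%). The 3 comparisons share the vehicle arrays. The GW1516 count was also 6 without replicate 2, where the background of the other 2 arrays was 11.8%, and 6 without replicate 1 (12.1%). The members' median difference was 0.26 for AICAR, 0.22 for GW1516 and 0.29 for the combination, beside 0.01, -0.01 and 0.00 over all genes, and 0.17 for GW1516 without replicate 2.

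Between the drug groups fewer differences were seen. For the combination against AICAR, 0 of the 10 genes had an unadjusted p under 0.05 (background 3.28% higher and 4.04% lower), and 0 were called, where 0.0313% of genes were called higher and 0.0% lower. For the combination against GW1516, Sgk1 alone had an unadjusted p under 0.05, on the lower side (background 5.15% higher and 5.23% lower), and 0 were called with 0.0% of genes called. Without GW1516 replicate 2, Klf9, Nr3c1 and Zbtb16 were higher at that unadjusted level for the combination against AICAR (background 4.54%), and Fkbp5 and Glul were higher and Sgk1 lower for the combination against GW1516 (background 3.99% and 4.75%), again with 0 called. The members' median for the combination against GW1516 was -0.01, or 0.09 without that array. The interaction asks whether the combination differed from the sum of the single-drug differences on the log2 scale. It lay above 0 for 1 of the 10 genes, beside 49.5% of all genes, with 0 called, 0 at an unadjusted p under 0.05 (background 3.29% higher and 3.35% lower) and 0.0% of genes called. Without GW1516 replicate 2 the genes above 0 were Errfi1 at 0.09 and Nr3c1 at 0.05. In the interaction Fkbp5 stood at -0.93 ± 0.45 (limma, adjusted p = 0.748), or at -0.43 ± 0.26 without GW1516 replicate 2 (adjusted p = 0.824). The members' median was -0.19, or -0.13 without that array.

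GW1516 replicate 2 was then set against the other 11 arrays, as a description of 1 pool with no test. The genes were chosen with earlier results of these data known, so the counts below are not independent evidence about that array. GW1516 replicate 2 was the highest array for 7 of the 10 genes, Fkbp5, Klf9, Klf15, Zbtb16, Glul, Errfi1 and Pik3r1, where 14.5% of all genes had their highest value on it. Of the others, Tsc22d3 was highest on combination replicate 2 (background 9.06%), Nr3c1 on combination replicate 3 (10.8%) and Sgk1 on vehicle replicate 3 (7.05%). The lowest value fell on vehicle replicate 1 for 4 genes (background 7.55%), on vehicle replicate 3 for 3 (7.12%), on AICAR replicate 3 for Nr3c1 (6.48%), on combination replicate 2 for Errfi1 (9.36%) and on combination replicate 3 for Sgk1 (9.96%), and on GW1516 replicate 2 for 0 (19.8%). Against the median of the other 11 arrays Pik3r1 was 3.28-fold, Klf15 2.32-fold, Fkbp5 1.93-fold, Zbtb16 1.68-fold, Errfi1 1.44-fold, Glul 1.31-fold and Klf9 1.12-fold as high. The share of all genes that lay further above was 0.172% for Pik3r1, 0.666% for Klf15, 1.35% for Fkbp5, 2.83% for Zbtb16, 6.39% for Errfi1, 11.6% for Glul and 26.1% for Klf9. By the same measure Nr3c1 (34.9%), Sgk1 (46.0%) and Tsc22d3 (48.1%) lay in the body of the distribution, not far from Klf9. More than 0.5 log2 units above the median of the other 11 arrays were 5 of the 10 genes, beside 7.21% of all genes, and more than 1 unit were 2, beside 1.18%. Of the 30 probe sets past the filter, 18 were highest on this array, beside 13.4% of all 27022 probe sets, among them 5 of 6 for Klf9 and 0 of 5 for Nr3c1.

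**Figure D3:**
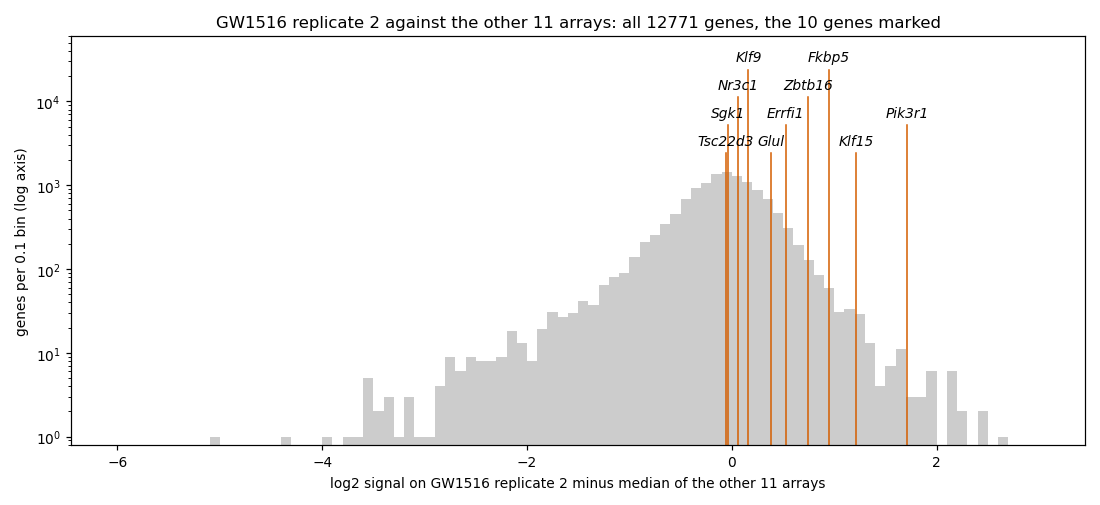
Number of genes (log axis, bins of 0.1) by their log2 signal on GW1516 replicate 2 minus the median of the other 11 arrays, over 12771 genes, with the 10 glucocorticoid-responsive genes marked. Pik3r1 at 1.71 and Klf15 at 1.21 lie in the far upper tail, and Tsc22d3, Sgk1 and Nr3c1 near the centre.

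**Figure D4:**
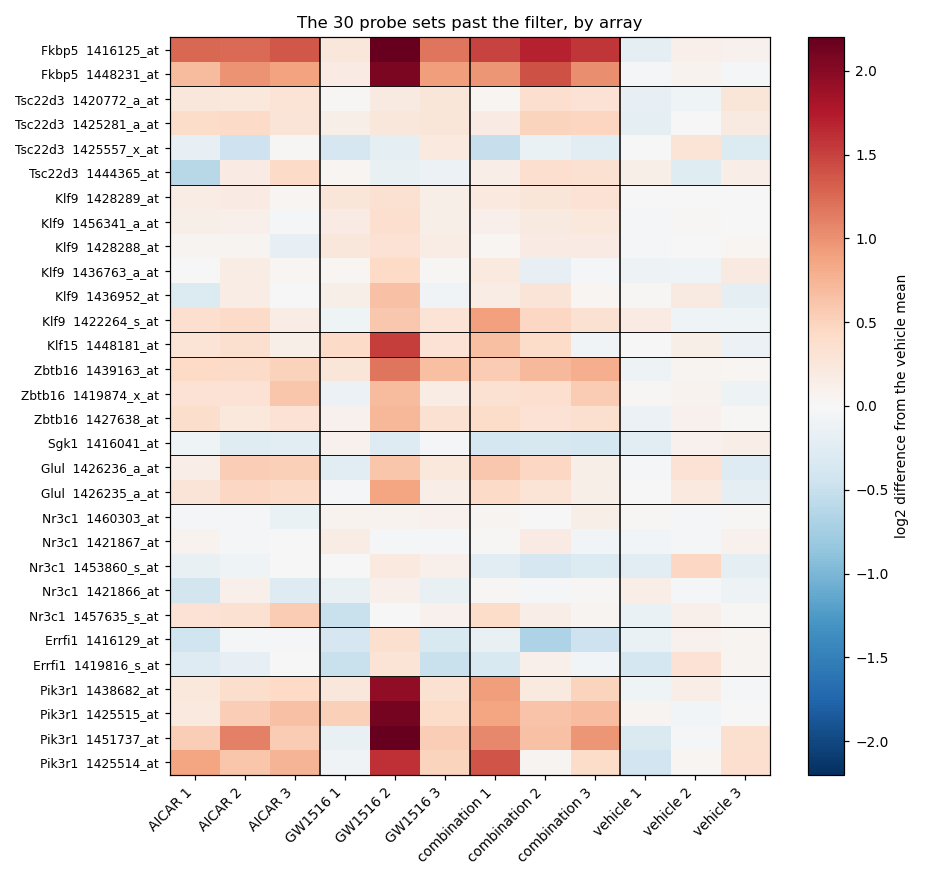
Log2 signal of the 30 probe sets past the filter on each array, minus the mean of the 3 vehicle arrays. The 2 Fkbp5, 3 Zbtb16 and 4 Pik3r1 probe sets are highest on GW1516 replicate 2, while those of Tsc22d3, Sgk1 and Nr3c1 are not.

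Other hormone-induced genes were read from a list chosen with earlier results of these data known. Of 29 measured, 18 were highest on GW1516 replicate 2 and 2 lowest, beside 14.5% and 19.8% of all genes, and their median against the vehicle mean was 0.19, 1.02 and 0.40 on the 3 GW1516 arrays. The muscle ubiquitin ligase gene Fbxo32 (atrogin-1) had 11250 (11250.0) on that array, against 1507 to 2607 on the others. Trim63 (MuRF1), the other classic ligase of muscle atrophy, had 10730 (10730.0), against 2071 to 2978. Cebpd, a transcription factor gene induced by the hormone, had 4628, against 472 to 1308, and Il6ra, an interleukin receptor subunit, had 370.3, against 84.1 to 169.5. These values lay outside the range of all other arrays. However, these genes were picked from the list because they lay furthest from the other arrays on GW1516 replicate 2. Their distance is therefore a result of the choice and not separate evidence about that array. Uncalled genes whose signals are given from the other lists were picked by the same rule. Listed genes that were not highest there included Foxo1, with 660.2 on GW1516 replicate 2, beside a median of 645 on the others.

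Over the replicates, called members of that list were Lpin1 for GW1516 (0.58 ± 0.084, limma, adjusted p = 0.015) and Foxo1, Pdk4 and Sult1a1 for the combination (1.59 ± 0.20, 1.32 ± 0.24 and 1.14 ± 0.16, adjusted p = 0.00405, 0.0466 and 0.0088), with 0 lower in either and 0 for AICAR. At an unadjusted p under 0.05, 7 were higher and 2 lower for AICAR, 16 and 0 for GW1516, and 8 and 3 for the combination, beside 3.88% and 3.05%, 4.48% and 5.16%, and 5.07% and 5.79% of all genes. Without GW1516 replicate 2 they were 12 and 3, 11 and 0, and 10 and 4, beside 4.97% and 4.38%, 3.59% and 3.29%, and 6.55% and 7.49%. The Lpin1 call was lost in 6 of 24 alternatives, among them each vehicle array left out (adjusted p up to 0.311), that of Pdk4 in 16 (up to 0.188), and those of Foxo1 and Sult1a1 only with no variance trend (0.0744 and 0.131). Lpin1 encodes a phosphatidic acid phosphatase, Foxo1 a factor of fasting and atrophy, Pdk4 the kinase that shuts pyruvate dehydrogenase and Sult1a1 a sulfotransferase.

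On GW1516 replicate 2 most fasting-induced genes lay above the median of the other 11 arrays, and most fed-state genes lay below it. Of 28 measured fasting-induced genes from a list chosen the same way, 22 were highest and 0 lowest on it, beside 14.5% and 19.8% of all genes, and the list's median was 0.14, 0.83 and 0.20 on the GW1516 arrays against the vehicle mean. Eif4ebp1, a brake on translation, had 5706 there, against 964 to 1491 on the others, and Mt1, a metallothionein, had 2999, against 525 to 1122. Besides the called genes above, Ucp3, a mitochondrial uncoupling protein gene, was called for GW1516 (1.35 ± 0.16, limma, adjusted p = 0.00583) and the combination (1.46 ± 0.16, adjusted p = 0.000996). The GW1516 call of Ucp3 was lost in 3 of 24 alternatives, with no variance trend or without vehicle replicate 2 or 3 (adjusted p up to 0.109), and the combination call only with no variance trend (0.0514). This list shares 14 measured genes with the hormone-induced list, so their counts are not separate. Of the 15 hormone-induced genes outside it, 7 were highest on that array. Of 21 measured genes that are high in the fed state, 11 were lowest and 1 highest on GW1516 replicate 2.

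Among the fed-state genes, the desaturase gene Scd1 had 1437 on GW1516 replicate 2, against 3035 to 10110.0 on the others, and the elongase gene Elovl6 had 32.4, against 53.0 to 237. Fasn, fatty acid synthase, had 456, against 552 to 3018. Col1a1, the main collagen of muscle matrix, had 1241, against 3730.0 to 7275. Pfkfb3, a driver of glycolysis, was called lower for the combination (-2.28 ± 0.22, limma, adjusted p = 0.000432). Without its 3 collagens, 8 of 18 fed-state genes were lowest there. Fibroblast and matrix markers were low on the same array: all 14 measured were lowest on it, with a summed signal of 18419, against 34278 to 47899 over the AICAR, combination and vehicle arrays. The 13 adipocyte markers summed to 20321 on it, also the lowest of the 12, and 11 macrophage and lymphocyte markers to 1925. The adipocyte median there was 0.19 against the vehicle mean, and 3 of the 13 were lowest on it, beside 19.8% of all genes. Against the median of the other 11 arrays the 13 markers had a median of -0.43 and 1 lay above 0, where the median of all genes was -0.07. The part of these cell types in the values of the members and of the fed-state genes was not tested. Skeletal muscle fibre markers, of which 0 of 14 were highest and 3 lowest, had a median of -0.02 on that array. Their summed signal there, 267400, was also the lowest of the 12, where vehicle arrays ran from 269263 to 281955.

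**Figure D5:**
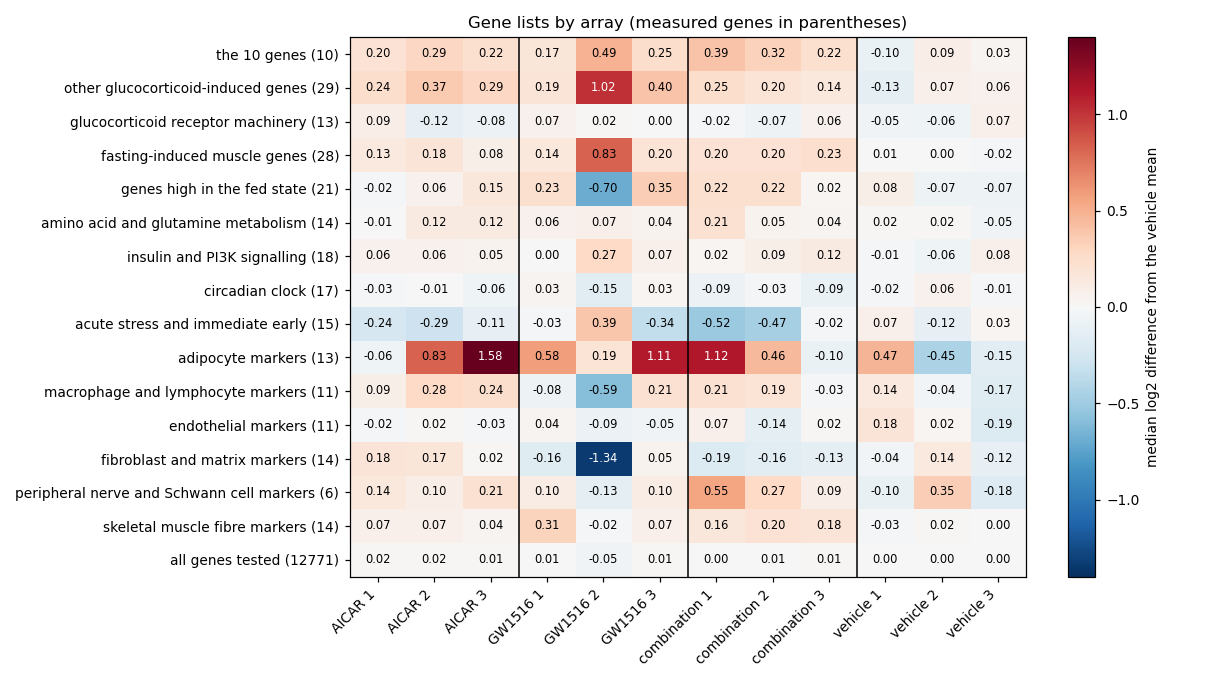
Median log2 difference from the vehicle mean for each gene list (rows, measured genes in parentheses) on each array (columns). GW1516 replicate 2 reads 0.49 for the 10 genes, 1.02 for other hormone-induced genes, 0.83 for fasting-induced genes, -0.70 for fed-state genes and -1.34 for fibroblast markers, where all genes read -0.05.

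Other lists are set beside the same shares of all genes, 14.5% highest and 19.8% lowest on GW1516 replicate 2. Irs2, Eif4ebp1 and Per1 in these lists, and Slc38a2 in the amino acid list, are also in the hormone-induced or fasting-induced list, so these counts are not separate. Of 18 measured insulin and PI 3-kinase genes 8 were highest and 1 lowest. The highest included Akt1, a kinase of insulin signalling, at 824, against 343 to 568, and Irs2, an insulin receptor substrate, at 519, against 183 to 478. Of 17 clock genes 4 were highest and 3 lowest: Cry2, a clock repressor, had 1366, against 504 to 715, and Rora, a clock activator, 4325, against 1610.0 to 2412, while Dbp, a clock output gene, had 1252, against 1803 to 2465. Of 15 acute stress and immediate early genes 5 were highest and 1 lowest, with the early response gene Ier3 at 378, against 110.5 to 204, and Hspa1a, an inducible heat shock gene, at 164, within the 49.1 to 167 of the others. Endothelial markers had 1 of 11 highest and 0 lowest. In the combination Nr1d1 and Bhlhe40, clock repressors, were called lower than vehicle, at -0.94 ± 0.16 and -0.81 ± 0.15 (limma, adjusted p = 0.0346 and 0.0451). These calls were lost in 8 and 11 of 24 alternatives, among them each combination or vehicle array left out (adjusted p up to 0.161 and 0.188).

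The genes most like the members were found by correlation with the mean of the 10 after each was centred and scaled, a description over 12 arrays of which 1 stands apart. They were Clip1, a microtubule plus-end protein (Pearson r = 0.97, Spearman rho = 0.89), Asb11, an ankyrin repeat protein (0.96 and 0.85), Sar1a, a vesicle coat GTPase (0.95 and 0.81), Ugp2, which makes UDP-glucose (0.94 and 0.84), and Wbp1l (0.94 and 0.90). Over the 11 arrays without GW1516 replicate 2 they were Clip1 (r = 0.93), Scyl2 (0.92), Wbp1l (0.91), Prodh (0.91) and Cebpb (0.91). Against the mean of the other 9 members, r over 12 arrays was 0.90 for Zbtb16, 0.895 for Pik3r1, 0.80 for Fkbp5, 0.79 for Klf15, 0.64 for Klf9, 0.47 for Glul, 0.27 for Tsc22d3, 0.195 for Nr3c1, 0.06 for Errfi1 and -0.55 for Sgk1. Over the 11 arrays without GW1516 replicate 2 it was 0.83 for Zbtb16, 0.785 for Pik3r1, 0.81 for Fkbp5, 0.475 for Klf15, 0.57 for Klf9, 0.44 for Glul, 0.37 for Tsc22d3, 0.003 for Nr3c1, -0.57 for Errfi1 and -0.62 for Sgk1.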

How the data were processed

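Gene expression was measured on 12 arrays in 4 groups of 3, named from the sample titles. The authors deposited 1 linear intensity value per probe set, made with MAS5 per the submitters' processing notes; each array's trimmed mean (2% off each end) was 200.0, and array medians ran from 45.4 to 54.2. Which MAS5 version was run is not given in the sources used here. Names came from GEO's platform annotation, and all 10 member gene IDs matched RefSeq with 0 symbols changed.

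Besides 64 controls, which were left out, there were 45037 probe sets. A floor of 1, which applied to 3531 of 540444 values, came before log2. The lowest 40% by mean log2 signal, below 28.2, were dropped, leaving 27022 probe sets, and the brightest probe set represented each of 12771 genes. The test was limma 3.58.1 under R 4.3.3 (a mean per group, variance trend, 8 residual and 5.91 prior degrees of freedom), two-sided, with Benjamini-Hochberg adjustment over all genes and calls at 0.05. The fit was tested on simulated data. Precision is set by there being 3 arrays a group.

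The 10 genes and all gene lists were chosen with earlier results of these data known. All members were to be named; from each other list, up to 4 genes furthest from the other 11 arrays on GW1516 replicate 2 and any gene called, of which the text gives a selection; and the 5 most correlated genes. Foxo1 is named as a called gene. The replicate numbers were checked as pairs: residual correlations of 18 same-numbered pairs ran from -0.11 to 0.07, so they were not taken as pairs. As alternatives, arrays were quantile normalized or centred on the median, and the fit was repeated with a pseudocount of 32, no filter or a 60% filter, other uses of probe sets, other variance models, only the groups compared, the replicate block and each array left out. Plots used matplotlib 3.10.9 (Python 3.11.15).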

Additional observations from a re-analysis of the deposited data

How the results depend on the processing

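Of 720 alternative values of single genes (10 genes, 3 comparisons with vehicle, 24 alternatives each), 699 kept their direction and side of the threshold, 15 newly passed it, all of Fkbp5 or Zbtb16, and 6 changed sign. The sign changes were all of values near 0: Nr3c1 at 0.013 for AICAR with the mean of probe sets and -0.0157 for the combination with median centring, and for GW1516 Sgk1 (-0.1897 to 0.033 with 1 array left out in turn, above 0 without GW1516 replicate 2 and, at 0.0016, without vehicle replicate 3), Glul (-0.0078 to 0.4206, below 0 without GW1516 replicate 2) and Errfi1 (-0.3522 to 0.0097, above 0 without GW1516 replicate 1). The count of the 10 genes called, 0 in each comparison, was 1 for AICAR and 2 for the combination with array weights, and 2 for each when only the groups compared were fitted. Leaving out 1 array in turn, it ranged from 0 to 1 for AICAR, from 0 to 2 for GW1516 and from 0 to 2 for the combination, and was above 0 only without GW1516 replicate 1 or, for AICAR and the combination, replicate 2. With the replicate block it was 0 in all 6 comparisons, and Fkbp5 stood at 1.58 for the combination (limma, adjusted p = 0.0686). Over all alternatives Fkbp5 ranged from 1.08 to 1.36 for AICAR, 0.72 to 1.69 for GW1516 and 1.35 to 1.64 for the combination, with limma's adjusted p from 0.000174 to 0.236 for the last. Median centring moved every gene by -0.12 for AICAR, 0.04 for GW1516 and -0.08 for the combination. With it the count of 7 genes highest on GW1516 replicate 2 was 9, where 23.3% of all genes were, and it was 7 under the other 5 alternatives run for it. Counting GW1516 arrays without replicate 1 or 2 was added after seeing the data and gave 6 genes above vehicle in both cases. Also added then were the same alternatives for the 9 calls of other list genes, of which 1, Pfkfb3 for the combination, passed under all 24, and the counts at an unadjusted p without GW1516 replicate 2.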
